A study of Drosophila melanogaster with 8 samples.

Results

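The heads described here came from fruit flies that had eaten a convulsant and then an antiepileptic drug and had returned to normal food before they were collected on day 14. They were measured on 4 of the 8 two-colour cDNA arrays of the study, each hybridised with head RNA from treated flies against head RNA from parallel controls. The other 4 arrays held heads collected on day 10, at the end of the antiepileptic drug. Genes were kept where a single gene name was known for the spot and at least 3 of the 4 day 14 arrays gave a value, which left 3172 of the 6793 named genes on the array. Of these, 2195 had a value on all 4 arrays and 977 on 3. The treated flies were unmated Oregon-R males, 3 to 4 days old at the start, that ate pentylenetetrazole (PTZ) for 7 days, sodium valproate (NaVP) for 3 days and normal food for 4 days. Their controls were Oregon-R males on normal food throughout, in vials of 30 flies. Each RNA sample was a pool of heads from several vials, so a value is an average over animals, and the series text calls the 4 arrays biological replicates. The drug concentrations are uncertain, because the sample labels give 8 mg/ml PTZ and 0.33 mg/ml NaVP while the series text gives 0.33 mg/ml PTZ and 24 mg/ml NaVP. No group received PTZ without valproate or valproate without PTZ, so the effects of the drugs cannot be told apart.

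PTZ blocks the GABA-A receptor, a chloride channel opened by the inhibitory transmitter GABA, and causes seizures. Valproate is a branched short-chain fatty acid used against epilepsy that also inhibits histone deacetylases and is itself broken down by fatty acid oxidation, glucuronidation and cytochrome P450 enzymes in mammals. A fly head holds brain and eyes together with muscle and a layer of fat body around the brain, the tissue that in insects combines functions of liver and adipose tissue.

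The 4 day 14 arrays gave values for 11208 to 14421 of 27648 spots, with an SD of 0.33 to 0.43 (log2) over the spots of an array. On arrays 1 and 2 the treated RNA carried the dye Cy5, and on arrays 3 and 4 it carried Cy3. The files do not state which channel stood on top of the deposited ratio. It was taken as Cy5 over Cy3, which is likely because the labels list Cy5 first and the series text writes the scanner channels in that order; with the other reading every sign below is reversed. Whether the authors had already turned arrays 3 and 4 is not stated. They were taken as not turned, because medians of print blocks on the slide, a pattern that keeps its sign in Cy5 over Cy3 whichever RNA carries the dye, correlated positively between arrays of opposite orientation (r = 0.29 to 0.68, named spots of one array against unnamed spots of the other). Their sign was therefore turned here so that a positive log2 ratio means higher in treated heads. After turning, arrays of the same dye orientation correlated over features (r = 0.27 for arrays 1 and 2, and 0.50 for arrays 3 and 4), while arrays of opposite orientation did not correlate positively beyond 0.018 and reached -0.31 for arrays 2 and 3. These correlations run across features, which are not replicates, and are given as a description. The arrays as a whole thus did not share a direction across the dye swap, and the differences below are those of single genes against that background.

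After 4 days back on normal food, 27 named genes differed between treated and control heads, 22 of them lower and 5 higher in treated heads (limma with a gene-wise dye term, Benjamini-Hochberg adjusted p under 0.05 over 7529 features). Over all features, which also count 4357 spots without a single gene name, 0.691% were called lower and 0.239% higher. The lower genes included 5 cytochrome P450 genes, the fat body gene sxe2, the glycerol-phosphate enzyme gene Gpdh1, the blue-light receptor gene cry and the stress transcription factor gene crc. Fold differences were modest, from 1.41-fold lower for crc to 1.77-fold lower for Cyp313a1 among the genes with 4 values. Each SE of a day 14 difference comes from the spread within a dye orientation, moderated by limma with the spread of other features. It does not measure the spread between all 4 arrays. All 18 called genes with 4 values were lower in treated heads, and in 17 of them all 4 arrays lay below 0. The remaining 9 had 3 values, and all 5 higher genes were among these. Among spots without a single gene name, 33 with 4 values were called, 28 lower and 5 higher. The calls depended on the dye term: without it 0 features passed, with 470 at an unadjusted p under 0.05, and in one fit with the day 10 arrays 0 passed, with 300 at that level. When arrays 3 and 4 were not turned, 168 features passed and only 4 of the 27 genes were among them. They also depended on single arrays: 227 features passed without array 1, 386 without array 2, 24 without array 3 and 31 without array 4. Of the 27 genes, those still testable and still called numbered 20 of 20 without array 1, 23 of 23 without array 2, 6 of 19 without array 3 and 9 of 19 without array 4. CG6409, Cyp28d1, cry, CG4914, CG7065, Gpdh1, Timp, crc, Cyt-b5-r and Gbp2 lost their call without array 3 and also without array 4, and CG9689, Iris and CtsK2 lost it without array 3. With print block medians subtracted, 8 genes lost it (Iris, Cyp4d21, CtsK2, Timp, Cyt-b5-r, Gbp2, CG5335 and CG31642).

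**Figure D1:**
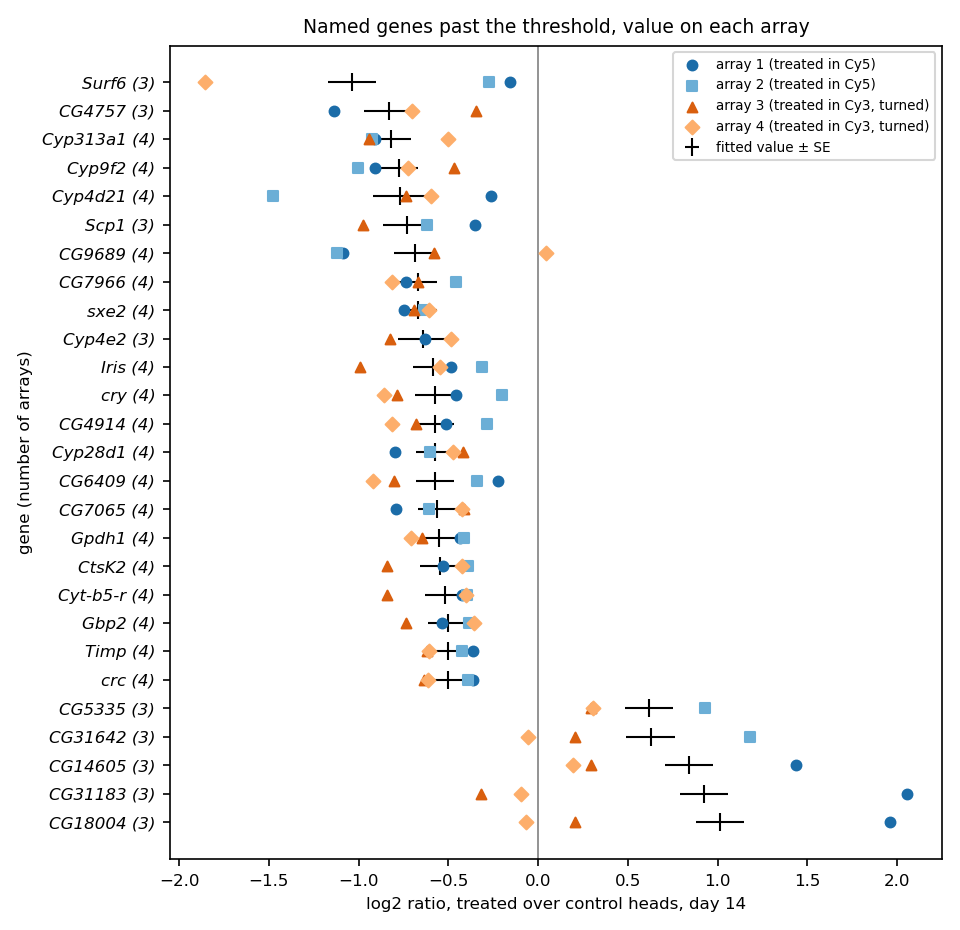
Log2 ratio of treated over control heads (horizontal axis) for the 27 called genes, with 1 symbol per array and the fitted value with its SE as a black bar; the number of arrays is in brackets. The 22 lower genes lie left of 0 on every array shown except CG9689 on array 4 (0.04), and the 5 higher genes each have 1 array far to the right of the others.

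Cytochrome P450 enzymes are haem-containing oxidases that act on hormones, fatty acids, pheromones, plant compounds and drugs. Cyp313a1 had log2 ratios of -0.91, -0.93, -0.94 and -0.50 on arrays 1 to 4, a fitted difference of -0.82 ± 0.11 (SE, n = 4; 1.77-fold lower; limma adjusted p = 0.00523). Arrays 1 to 3 lay within 0.03 of each other, and array 4 stood nearer 0. Cyp9f2 gave -0.91, -1.01, -0.47 and -0.72, a difference of -0.78 ± 0.11 (1.71-fold lower; adjusted p = 0.00523). For Cyp4d21, also known as sex-specific enzyme 1 and expressed in the fat body of the head, the values were -0.27, -1.48, -0.74 and -0.59, a difference of -0.77 ± 0.15 (1.70-fold lower; adjusted p = 0.0302). Array 2 was far lower than array 1 for Cyp4d21 although both had the same dye orientation, and without array 2 the difference was -0.47 (adjusted p = 0.0235). Its call was lost with print block medians subtracted (adjusted p = 0.0682) and with a robust variance prior (adjusted p = 0.0576). Cyp28d1 had -0.80, -0.60, -0.42 and -0.48, a difference of -0.57 ± 0.11 (1.49-fold lower; adjusted p = 0.0213). Cyp4e2 was measured on arrays 1, 3 and 4, at -0.63, -0.83 and -0.49, a difference of -0.64 ± 0.14 (1.56-fold lower; adjusted p = 0.0485). None of these 5 genes had an array above 0.

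Over the whole family, 36 of the 69 P450 genes on the array were tested, and 23 lay below 0. Of the 36, 5 were called lower and 0 higher, beside 0.691% called lower and 0.239% higher over all features. At an unadjusted p under 0.05, 7 were lower (19.4%) and 1 higher, beside 6.97% lower and 4.81% higher over all features. The median log2 ratio was -0.13, beside -0.002 over all features, and the medians on arrays 1 to 4 were -0.18, -0.16, -0.19 and -0.20. Array medians of the family thus lay close together on both dye orientations. The median of fitted values was -0.06 without array 1 and -0.21 without array 2. The family also lay below 0 at day 10, with a median of -0.151 over 47 tested genes, beside 0.041 over all features. Of 29 P450 genes with enough values on both days, 11 were lower at day 14 than at day 10, with a median difference of 0.056. The lower family median was thus not particular to day 14. By clan, the CYP4 clan held 3 of the 5 calls, with 10 of 15 tested genes below 0 and a median of -0.16. In the CYP3 clan, 2 of 16 were called and the median was -0.10. The 2 genes of the CYP2 clan and the 3 of the mitochondrial clan held 0 calls, at medians of -0.14 and 0.07. In the CYP4 clan 6 genes lay below 0 on all 4 arrays, of which Cyp313a1 and Cyp4d21 were called. The other 4, chosen after their values were seen, did not pass: Cyp4ac1 at -0.42 ± 0.11 (adjusted p = 0.103), Cyp4d20 at -0.36 ± 0.11 (adjusted p = 0.192), Cyp4p1 at -0.24 ± 0.11 (adjusted p = 0.424) and Cyp311a1 at -0.12 ± 0.11 (adjusted p = 0.723). The highest member was Cyp6a22, also chosen after its value was seen, at 0.40 ± 0.14 on 3 arrays (adjusted p = 0.267). In other detoxification families, 9 of 12 glutathione S-transferases lay below 0 (median -0.11), and 2 of 5 UDP-glycosyltransferases did (median 0.03). Both held 0 calls, but with 0.691% of all features called lower, nothing is read from that count in lists this small.

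Several called genes belong to fat body and metabolism. The fat body gene sxe2 encodes a lipase-like protein that is expressed more in male heads than in female heads. It had log2 ratios of -0.75, -0.63, -0.69 and -0.61 on arrays 1 to 4, a difference of -0.67 ± 0.11 (SE, n = 4; 1.59-fold lower; limma adjusted p = 0.0107). Its SD between arrays was 0.062, small beside its distance from 0. Gpdh1 encodes glycerol-3-phosphate dehydrogenase, which links glycolysis to glycerolipids and to the redox balance of the cytosol. It gave -0.43, -0.41, -0.65 and -0.71, a difference of -0.55 ± 0.11 (1.46-fold lower; adjusted p = 0.0223). Both arrays with treated RNA in Cy3 were lower than both with it in Cy5. Cyt-b5-r, a cytochrome b5-related gene, had -0.43, -0.40, -0.84 and -0.40, a difference of -0.52 ± 0.11 (1.43-fold lower; adjusted p = 0.0456), with array 3 lower than the other three. CG7966, whose product is related to vertebrate selenium-binding protein, had -0.74, -0.46, -0.67 and -0.81, a difference of -0.67 ± 0.11 (1.59-fold lower; adjusted p = 0.0114). All 4 of these genes were below -0.3 on every array.

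Among regulators and signalling genes, cry encodes cryptochrome, the blue-light photoreceptor that resets the circadian clock. Its log2 ratios were -0.46, -0.20, -0.79 and -0.86 on arrays 1 to 4, a difference of -0.58 ± 0.11 (SE, n = 4; 1.49-fold lower; limma adjusted p = 0.0213). All 4 lay below 0, and arrays 3 and 4 lay further from it. The gene crc encodes the fly ATF4, a transcription factor induced by amino acid shortage and endoplasmic reticulum stress. It had -0.37, -0.39, -0.63 and -0.61, a difference of -0.50 ± 0.10 (1.41-fold lower; adjusted p = 0.0365). Gbp2 encodes a growth-blocking peptide, one of a family of insect cytokines, and had -0.54, -0.39, -0.74 and -0.36, a difference of -0.50 ± 0.11 (1.42-fold lower; adjusted p = 0.0485). Scp1, a sarcoplasmic calcium-binding protein gene, was measured on arrays 1 to 3 at -0.35, -0.62 and -0.97, a difference of -0.73 ± 0.14 (1.66-fold lower; adjusted p = 0.0238). No array of these genes lay above 0, but the spread between arrays was wide for cry (SD 0.31) and Scp1 (SD 0.31).

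Of the other called genes, 3 encode a protease or a protease inhibitor, beside 0.691% called lower over all features. Proteases were not counted as a list, so nothing is read from that number. Cathepsins are lysosomal proteases, and the cathepsin gene CtsK2 had log2 ratios of -0.53, -0.39, -0.84 and -0.42 on arrays 1 to 4, a difference of -0.55 ± 0.11 (SE, n = 4; 1.46-fold lower; limma adjusted p = 0.0331). Timp encodes the tissue inhibitor of matrix metalloproteases and had -0.36, -0.42, -0.62 and -0.61, a difference of -0.50 ± 0.11 (1.42-fold lower; adjusted p = 0.036). CG4914, a predicted trypsin-like serine protease gene, had -0.52, -0.28, -0.68 and -0.81, a difference of -0.57 ± 0.11 (1.49-fold lower; adjusted p = 0.0213). For Timp and CG4914 arrays 3 and 4 were the lower pair, and for CtsK2 array 3 alone was. Iris, a host gene derived from the envelope gene of an insect retrovirus, had -0.49, -0.31, -0.99 and -0.55, a difference of -0.58 ± 0.11 (1.5-fold lower; adjusted p = 0.0254).

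The remaining lower genes have no role given here or rest on uneven values. CG9689 had log2 ratios of -1.09, -1.12, -0.58 and 0.04 on arrays 1 to 4, a difference of -0.69 ± 0.12 (SE, n = 4; 1.61-fold lower; limma adjusted p = 0.0155), and its SD of 0.55 between arrays was large beside the difference. CG6409 had -0.22, -0.34, -0.80 and -0.92, a difference of -0.57 ± 0.11 (1.49-fold lower; adjusted p = 0.0213). CG7065 had -0.79, -0.61, -0.41 and -0.43, a difference of -0.56 ± 0.11 (1.48-fold lower; adjusted p = 0.0213). These last genes ran in opposite order over the dye orientations, CG6409 lower on arrays 3 and 4 and CG7065 lower on arrays 1 and 2, while all their values lay below 0. CG4757 was measured on arrays 1, 3 and 4 at -1.14, -0.35 and -0.70, a difference of -0.83 ± 0.14 (1.78-fold lower; adjusted p = 0.0155). Surf6 encodes a nucleolar protein and had -0.16, -0.27 and -1.86 on arrays 1, 2 and 4, a difference of -1.04 ± 0.13 (2.05-fold lower; adjusted p = 0.00523). The value of Surf6 on array 4 is the mean of duplicate spots at -3.58 and -0.14, so 1 spot sets most of it, and no SE from the dye model reflects that. Array 2 was read from the same pair of spots, at 0.03 and -0.57. Array 1 was read from another pair, at -0.42 and 0.10. No pair of spots for Surf6 thus had values on 3 arrays.

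The 5 higher genes all had a value on 1 array with treated RNA in Cy5 and on both arrays with it in Cy3. In such a gene the lone array of one orientation carries as much weight as the other 2 together, and the dye term takes up the difference between orientations. The lone array adds nothing to the SE, which is therefore small even where the arrays differ widely. For CG31183 the SD between arrays was 1.31. The same holds for the lower genes with 3 values, Surf6, CG4757, Scp1 and Cyp4e2. Without the dye term these were at -0.762, -0.728, -0.647 and -0.647, beside -1.035, -0.83, -0.729 and -0.642 with it. CG18004 had log2 ratios of 1.96, 0.20 and -0.07 on arrays 1, 3 and 4, a fitted difference of 1.01 ± 0.14 (SE, n = 3; limma adjusted p = 0.00523). Its duplicate spots on array 1 read 0.48 and 3.45. CG31183, a receptor guanylate cyclase gene, had 2.06, -0.32 and -0.09 on the same arrays, a fitted difference of 0.93 ± 0.14 (adjusted p = 0.00892), with duplicate spots of 0.77 and 3.34 on array 1. Both rest on 1 spot with a high ratio, and arrays 3 and 4 lay near 0 or below it. CG31642 had 1.18, 0.21 and -0.06 on arrays 2, 3 and 4, a difference of 0.63 ± 0.14 (adjusted p = 0.0493). CG14605 and CG5335 were the 2 higher genes with every measured array above 0. CG14605 had 1.44, 0.29 and 0.19 on arrays 1, 3 and 4, a difference of 0.84 ± 0.13 (1.79-fold higher; adjusted p = 0.0119), and its duplicate spots on array 1 were close, at 1.53 and 1.34. CG5335 had 0.93, 0.29 and 0.30 on arrays 2, 3 and 4, a difference of 0.62 ± 0.13 (1.53-fold higher; adjusted p = 0.0485). When duplicate spots that differed by more than 1 (log2) on an array were left out on that array, a check chosen after the data were seen, Surf6, CG18004 and CG31183 no longer had enough arrays to be tested, and the other 24 genes were all still called.

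**Figure D2:**
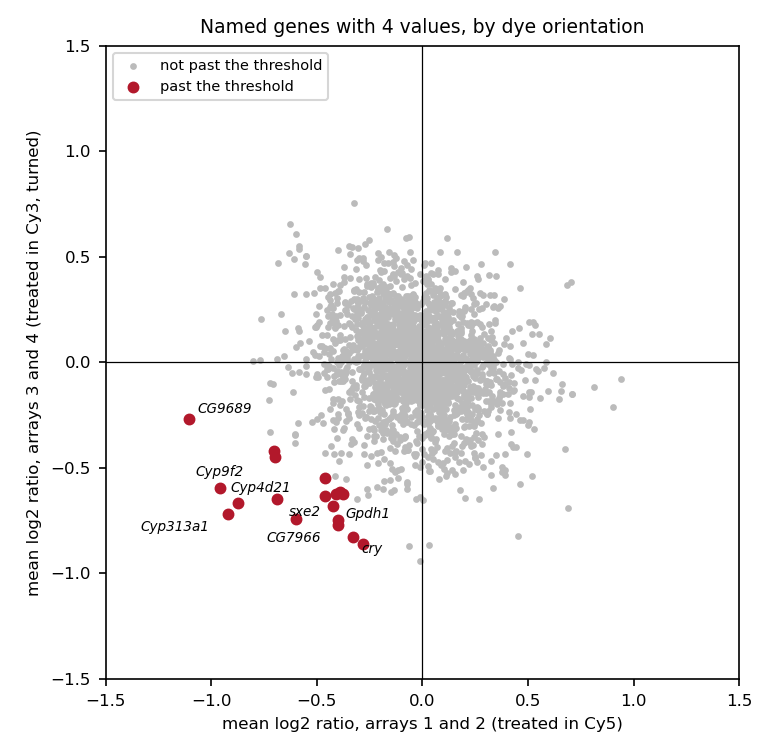
Each point is 1 of the 2195 named genes with 4 values, plotted as the mean log2 ratio of arrays 1 and 2 (treated in Cy5, horizontal) against that of arrays 3 and 4 (treated in Cy3, turned, vertical). The 18 called genes (red) all lie at the lower left, below 0 on both axes, while the cloud of other genes runs from upper left to lower right through 0.

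Genes with all 4 arrays on one side were counted apart from any fit. Of 2195 named genes with 4 values, 209 lay below 0 on all 4 arrays and 132 above 0 on all 4, beside 8.87% below and 6.32% above over all 5221 features with 4 values. At a stricter level of 0.3, 16 genes were below -0.3 on every array and 1 was above 0.3 on every array. Of the 16, 13 were among the called genes. The others, chosen after their values were seen, were Sodh1 (a sorbitol dehydrogenase gene; -0.48 ± 0.11, limma adjusted p = 0.0542), CG8586 (-0.43 ± 0.11, adjusted p = 0.098) and CG15098 (-0.43 ± 0.11, adjusted p = 0.0894). The single gene above 0.3 was CG5065, at 0.39, 0.31, 0.40 and 0.42 (0.38 ± 0.11, adjusted p = 0.129). Without turning arrays 3 and 4 the counts were 326 below 0, 200 above 0, 9 below -0.3 and 5 above 0.3. The stricter level was thus met below zero by more genes with the turned signs than without, and above zero by fewer. Over all named genes tested, 1626 lay below 0 and 1546 above, with a median of -0.005, near the 0 that centring sets.

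**Figure D3:**
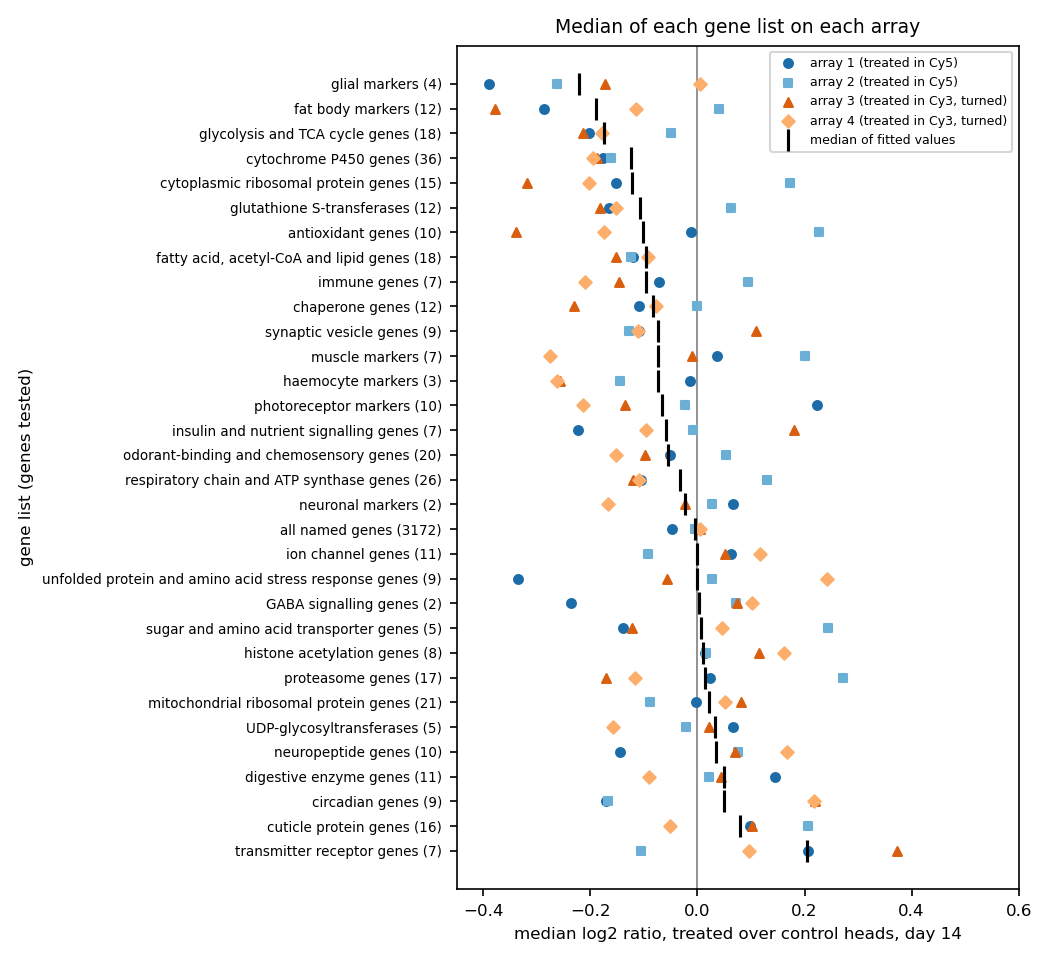
Median log2 ratio of treated over control heads (horizontal axis) for each gene list on each array, with a black bar for the median of the fitted values and the number of genes tested in brackets. Of the 31 lists, the P450 list has the 4 array medians that lie closest together (-0.16 to -0.20), and most other lists have arrays on both sides of 0.

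Energy metabolism leaned below 0, with few calls. Among glycolysis and TCA cycle genes, 15 of 18 tested lay below 0, with a median of -0.18 and array medians of -0.20, -0.05, -0.21 and -0.18. The 1 call was Gpdh1, and 4 (22.2%) had an unadjusted p under 0.05, all lower, beside 6.97% of all features lower at that level and 0.691% called lower. Earlier results of these data had already named Gpdh1, so its call is not independent of the choice of list. Pgi, the phosphoglucose isomerase gene, had -0.27, -0.10, -0.30 and -0.62 on arrays 1 to 4, a difference of -0.32 ± 0.11 that did not pass (limma adjusted p = 0.244). Fatty acid, acetyl-CoA and lipid genes lay below 0 in 16 of 18, with a median of -0.10, and 0 were called, with 5 (27.8%) lower and 1 higher at an unadjusted p under 0.05, beside 6.97% lower and 4.81% higher over all features. That median was -0.035 without array 1 and -0.23 without array 2. AcCoAS, which makes acetyl-CoA from acetate, had -0.27, -0.38, -0.32 and -0.44, a difference of -0.35 ± 0.11 that was even across arrays but did not pass (adjusted p = 0.177). Acbp2, an acyl-CoA-binding protein gene, had -0.68, -0.25 and -0.07 on arrays 1, 3 and 4 (-0.42 ± 0.13, adjusted p = 0.213). Respiratory chain and ATP synthase genes lay below 0 in 18 of 26 (median -0.03), with 0 called and 0 at an unadjusted p under 0.05. Their array medians were -0.11, 0.13, -0.12 and -0.11, so array 2 went the other way. With 1 array left out their median ranged from -0.129 to 0.025.

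Fat body markers lay below 0 in 10 of 12 tested, with a median of -0.19. These included 2 calls (sxe2 and Cyp4d21), and 4 (33.3%) were lower at an unadjusted p under 0.05, beside 0.691% called lower and 6.97% lower at the unadjusted level over all features. Array 2 was the exception, with a list median of 0.04 against -0.29, -0.38 and -0.12 on arrays 1, 3 and 4. The list was drawn up with earlier results of these data known, and those results had named sxe2. The calls and the share of 33.3% are therefore not independent of these data. The markers were not uniform. Of members without a call, chosen after their values were seen, Lsp2 was at -0.325 and Mtp at -0.285. Others lay near 0, with apolpp at -0.005, Yp3 at 0.01 and Yp2 at 0.057. For the markers that were lower, fewer fat body cells and less RNA per cell cannot be told apart in RNA of whole heads. Because the files hold ratios and not levels, the amount of fat body RNA in a pool could not be measured. The part of this difference in the P450 and metabolic values was not tested. The list is not separate from the others: Cyp4d21 and Cyp6a20 are also P450 genes, FASN1 is also a lipid gene, and Obp44a and Obp99b are also chemosensory genes. Without array 2 its median was -0.31, and without array 1 it was -0.11.

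Markers of other cell types held 0 calls, beside 0.691% called lower and 0.239% higher over all features. In lists this small nothing is read from that count. Of the 5 neuronal markers on the array, 2 were tested and neither was called: nSyb, a vesicle fusion gene, at -0.11 ± 0.11 (adjusted p = 0.742, limma) and the potassium channel gene Sh at 0.06 ± 0.11 (adjusted p = 0.871). Glial markers lay below 0 in 3 of 4 with a median of -0.22, lower than that of the fat body markers, and 1 was lower at an unadjusted p under 0.05. Their array medians were -0.39, -0.26, -0.17 and 0.01. In this list the astrocyte gene alrm had -0.64, -0.73 and -0.34 on arrays 1 to 3, a difference of -0.51 ± 0.13 that did not pass (adjusted p = 0.11). Photoreceptor markers were below 0 in 6 of 10, muscle markers in 4 of 7 and haemocyte markers in 2 of 3, with 0 called in each. At an unadjusted p under 0.05, 2 photoreceptor markers were higher and 1 lower. The higher ones were Slob at 0.328 ± 0.115 (limma adjusted p = 0.265) and rdgA at 0.369 ± 0.133 on 3 arrays (adjusted p = 0.284). The lower one, chosen after its value was seen, was inaC at -0.284 ± 0.109 (limma adjusted p = 0.315). The median of the photoreceptor list was -0.067. Cuticle protein genes ran the other way, above 0 in 12 of 16 with a median of 0.08 and 0 called.

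The drugs' textbook targets were thinly covered. Of 6 GABA signalling genes on the array, 2 were tested. Gad1, which makes GABA from glutamate, had -0.08, 0.03, 0.08 and 0.08, a difference of 0.03 ± 0.11 (limma adjusted p = 0.945), and the GABA-A receptor subunit gene Lcch3 was at -0.02 ± 0.12 (adjusted p = 0.958). Histone acetylation genes were above 0 in 5 of 8 (median 0.01) with 0 called, and the deacetylase gene HDAC6 had values on too few arrays to be tested. Transmitter receptors lay above 0 in 5 of 7 (median 0.20), with 0 called. The serotonin receptor gene 5-HT2A was at 0.29 ± 0.11 (adjusted p = 0.321) and the octopamine receptor gene Octbeta1R at 0.33 ± 0.13 (adjusted p = 0.344). Ion channel genes split 6 below and 5 above, synaptic vesicle genes 7 below and 2 above, and neuropeptide genes 3 below and 7 above, with 0 called in any of them. Over all features 0.691% were called lower and 0.239% higher, so nothing is read from 0 calls in lists of this size.

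Circadian genes did not follow cry. Of 9 tested, 2 lay below 0 and 7 above, with a median of 0.05, and cry was the only call. Earlier results of these data had already named cry, so its call is not independent of the choice of list. The share called over all features was 0.691% lower and 0.239% higher. Pdp1, a clock transcription factor gene, had 1.68, -0.28, 0.39 and 0.37 on arrays 1 to 4, a difference of 0.54 ± 0.21 that did not pass (limma adjusted p = 0.324). Array 1 stood far above the rest for Pdp1, and array 2 lay below 0. Pdfr, the receptor of the clock neuropeptide PDF, had 0.12, 0.42, 0.31 and 0.20 (0.26 ± 0.11, adjusted p = 0.349). Array medians of the list split by dye, at -0.17 on both arrays 1 and 2 and at 0.22 on both arrays 3 and 4.

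Stress, protein and immune lists held 1 call in all, crc, which is counted among 9 unfolded protein and amino acid stress response genes (4 below 0, median 0.00). The share called over all features was 0.691% lower and 0.239% higher. Cytoplasmic ribosomal protein genes lay below 0 in 12 of 15 (median -0.12), chaperone genes in 8 of 12 (median -0.08), antioxidant genes in 7 of 10 (median -0.10) and immune genes in 6 of 7 (median -0.10). On array 2 the medians of the ribosomal, antioxidant and immune lists lay above 0, at 0.172, 0.227 and 0.094. On arrays 1, 3 and 4 they lay below 0. Proteasome genes were below 0 in 8 of 17, mitochondrial ribosomal protein genes in 10 of 21, digestive enzyme genes in 4 of 11 and sugar and amino acid transporter genes in 2 of 5. Odorant-binding and chemosensory genes lay below 0 in 13 of 20, and insulin and nutrient signalling genes in 6 of 7.

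To ask whether the day 14 values differ from those at the end of valproate, the difference of the treated-over-control ratios was tested in one fit of all 8 arrays. The call rate was 0% of 6419 features at adjusted p under 0.05 (limma; smallest adjusted p 0.773), and 402 features (6.26%) had an unadjusted p under 0.05. A difference between days was therefore not shown for any single gene at this number of arrays. Of the 27 called genes, 25 could be tested in it. Their day 10 value had the same sign in 14 and the opposite sign in 11. In 11 of them the difference had an unadjusted p under 0.05, but they were chosen by their day 14 values, which enter the difference, so nothing is read from that count.

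**Figure D4:**
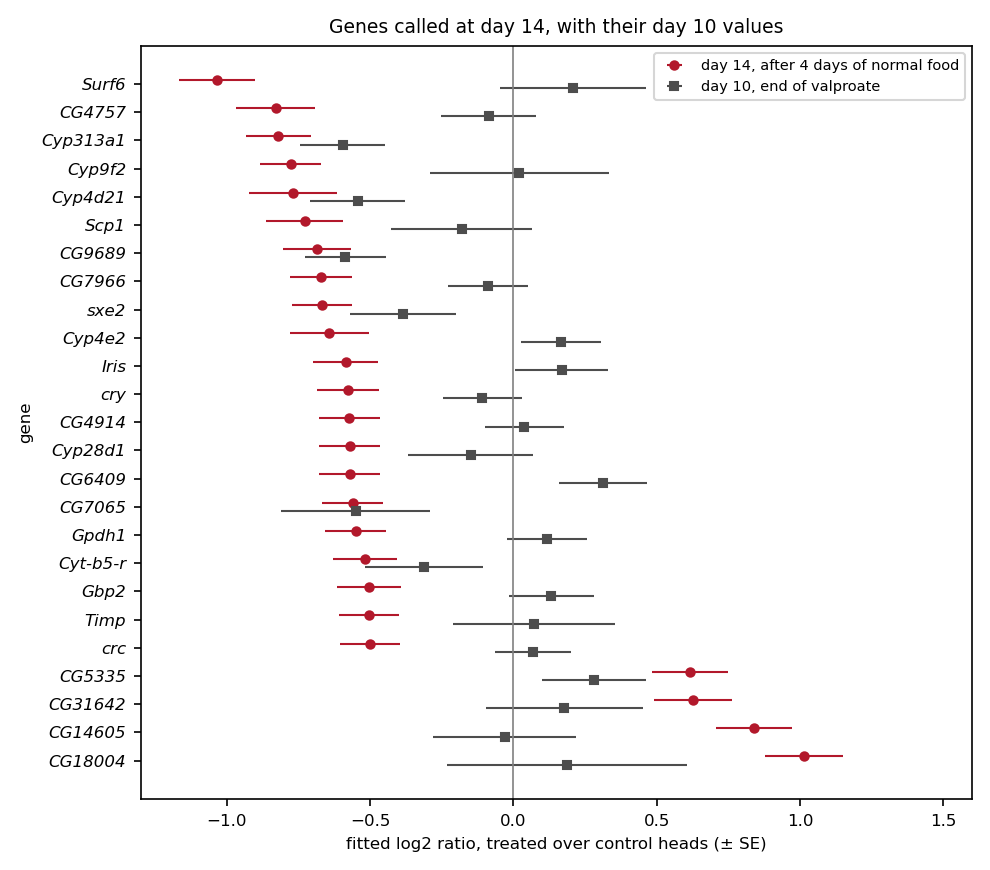
Fitted log2 ratio of treated over control heads with its SE for 25 of the 27 genes called at day 14, at day 14 (red) and at day 10 (grey); the other two could not be tested in the difference. Cyp313a1, Cyp4d21, CG9689 and CG7065 have day 10 values near their day 14 values, and CG6409 lies on the opposite side of 0.

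Of the called genes, 3 lay the same way at day 10 with an unadjusted p under 0.05, though none passed the adjustment there. Cyp313a1 was at -0.82 ± 0.11 at day 14 and -0.60 ± 0.15 at day 10 (SE, n = 4 arrays each; limma adjusted p = 0.798 at day 10). CG9689 was at -0.69 ± 0.12 at day 14 and -0.59 ± 0.14 at day 10. Cyp4d21 was at -0.77 ± 0.15 at day 14 and -0.54 ± 0.17 at day 10. The day 14 to day 10 difference of Cyp313a1 was -0.22 ± 0.19 and that of Cyp4d21 was -0.23 ± 0.26, both less than 2 SE from 0. Other genes sat near 0 or above it at day 10: Cyp9f2 was at -0.78 ± 0.11 at day 14 and 0.02 ± 0.31 at day 10, Gpdh1 was at -0.55 ± 0.11 at day 14 and 0.12 ± 0.14 at day 10, and Cyp4e2 was at -0.64 ± 0.14 at day 14 and 0.17 ± 0.14 at day 10. CG6409 was the only called gene with all 4 day 14 arrays below 0 and all 4 day 10 arrays above 0, at -0.57 ± 0.11 at day 14 and 0.31 ± 0.15 at day 10. Its difference of -0.88 ± 0.22 had an unadjusted p of 0.00206 in limma's fit over all features and an adjusted p of 0.773.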

How the data were processed

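Head RNA of treated and control flies was compared on 8 two-colour arrays, 4 per harvest day. Per the submitters' text and the labels, the authors scanned slides with GenePix Pro 6.0, ratio-normalised with Acuity 4.0 and left out spots with raw intensity below 100, 3 percent or more saturated pixels, an R2 between channels under 0.6 or a signal-to-noise ratio under 3. The deposited values are log2 ratios per spot, judged from the values; 2 values at the cap were left out. No other sample's columns were present.

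Gene names came from the platform annotation, updated through gene IDs to RefSeq (14894 of 15116 rows naming 1 gene; 102 rows named several and 12430 none). Each array was centred on its median, the 2 Dyeswap arrays were sign-turned, rows of 1 gene were averaged, and limma 3.58.1 in R 4.3.3 was fitted to the 4 day 14 arrays alone with a gene-wise dye term. Calls used Benjamini-Hochberg adjusted p under 0.05 over 7529 features. With 4 arrays an exact two-sided sign-flip test cannot go below p = 0.125, so none was used. The script was tested on simulated data.

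Members and the 31 gene lists were chosen with earlier results of these data known. After the values were seen, list symbols were brought to RefSeq spelling, and the tRNA synthetase gene GluRS-m was taken out of the transmitter receptors. Lists got counts and medians and no test. The rule for named genes was every called named gene, from each list the 2 genes of lowest p, and Gad1 and HDAC6. It also held CG7966, CG4914, cry, Gpdh1 and sxe2, because earlier results of these data had named them. Not every list gene under that rule is described above. No sequences were given, so none are shown. Labels' replicate numbers only name samples: no label ties them to shared pools, so the fits above have no block.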

Additional observations from a re-analysis of the deposited data

Results flagged for a closer look

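In groups of 4 arrays, 1 value stood apart from the other three for several of the genes and list medians looked at (63 genes with 4 values and 31 list medians were looked at, and chance alone marks about 1 in 20). At day 14 Cyp313a1 was at -0.50 on array 4, nearer 0 than on the other arrays. Cyt-b5-r was at -0.84 and Hsc70-5, a mitochondrial chaperone gene, at -0.62 on array 3, each lower than the others. Lcch3 was at -0.39 and the synaptic gene unc-13 at 0.78 on array 1, and the insulin-like peptide gene Ilp2 at 0.33 on array 2. The list median of glutathione S-transferases was 0.063 and that of respiratory chain and ATP synthase genes 0.13 on array 2, that of the 2 GABA signalling genes -0.24 on array 1, and that of synaptic vesicle genes 0.11 on array 3.

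Of 78 genes named by the rule with at least 3 arrays on both days, 2 had every day 14 array on one side of 0 and every day 10 array on the other. Over all 2711 named genes with that many arrays, 42 did, 20 of them below 0 at day 14. CG6409 differed by -0.88 (day 14 minus day 10; limma unadjusted p = 0.00206, adjusted p = 0.773). AcCoAS differed by -0.59 (unadjusted p = 0.00495, adjusted p = 0.773), at -0.35 ± 0.11 at day 14 and 0.24 ± 0.13 at day 10. Neither difference passed the adjustment over 6419 features.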

How the results depend on the processing

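The main fit called 70 features (22 named genes lower, 5 higher; 25.7% of features higher). Without the dye term and in the joint fit with day 10, 0 features passed (0 lower, 0 higher). With arrays 3 and 4 not turned, 168 passed (66.7% higher), with 28 named genes higher. Not centring gave 135 (49 named genes lower; 10.4% higher), named genes only gave 31. Named genes called higher numbered 3 with arrays scaled to one spread, 3 with print block medians subtracted, 3 with discordant duplicates left out (chosen after seeing the data; 15.5% of features higher), 0 with values on all 4 arrays and 10 with values on 2 or more. Leaving out 1 array gave 24 to 386 features, 6 to 85 named genes lower and 0 to 38 higher: 227 without array 1, 386 without array 2, 24 without array 3 and 31 without array 4. Of the 27 genes, 6 of 19 still testable stayed called without array 3, 9 of 19 without array 4, 20 of 20 without array 1 and 23 of 23 without array 2. The cause was not tested. Cyp313a1, Cyp9f2, sxe2 and CG7966 were called in all 12 settings other than no dye term, joint fit and unturned arrays, and with discordant duplicates left out.

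With arrays 3 and 4 not turned, the log2 ratios with the opposite sign were Surf6 0.82, CG7966 0.071, CG6409 0.29, cry 0.25, CG4914 0.17, Gpdh1 0.13, Scp1 0.24, Iris 0.19, CtsK2 0.086, Timp 0.11, crc 0.12, Cyt-b5-r 0.11, Cyp4e2 0.014 and Gbp2 0.043.

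Of 248 recomputed list medians, 237 moved by less than the spread between arrays and 40 changed sign. The P450 median was -0.098 with block medians subtracted and -0.208 to -0.06 with 1 array left out. With all 4 values required, the UDP-glycosyltransferase median was -0.11, the lipid gene median -0.154 and the histone acetylation median 0.088. With 1 array left out these ranged from -0.171 to 0.032 for UDP-glycosyltransferases, from -0.229 to -0.035 for lipid genes, and for glial markers from -0.253 to -0.043. For the day 14 minus day 10 difference, 0 features were called under every alternative run. With the replicate number as a block, 351 features had an unadjusted p under 0.05, the smallest adjusted p was 0.227 and 0 were called; the numbers were not taken to pair samples, since the labels do not say that a number marks a shared pool, deviations of same-numbered arrays from their group means correlated at 0.062 to 0.417, and 2 of 4 day 14 arrays correlated best with the day 10 array of their own number.

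The number of arrays limits the precision, and all but 3172 of 6793 named genes had too few values at day 14 to be tested.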
